A study of Mus musculus with 16 samples.

Results

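The genes described here are 10 genes of the mouse piRNA pathway, taken by symbol from a table of 35920 genes: Piwil1, Piwil2, Ddx4, Mov10l1, Mael, Tdrd1, Tdrd5, Tdrd6, Tdrd7 and Tdrd9. The rule that picks them goes by gene function and takes no measured value, but the set was proposed with earlier results of these data known. Testis RNA was exposed to J2, a mouse monoclonal antibody to double-stranded RNA, and libraries were made from what it bound (J2) and from what it left (flow-through). The 16 libraries formed 6 groups. Testis labelled Dicer knock-out at postnatal day 18 (P18, genotype Dcr-/-, called KO here) gave 3 J2 and 3 flow-through libraries. Adult testis, wild type with its strain given as unknown, gave 2 J2 and 2 flow-through libraries. Wild-type testis at P18 (WT) gave 3 of each, and both P18 genotypes were on a C57BL/6 x 129S4/SvJae background. The sources used here do not say in which cells Dicer was deleted, and age and strain cannot be told apart between adult and WT libraries. No label says that the libraries of a group came from separate animals, so the p-values measure the spread between these libraries, which may be technical.

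piRNAs are small RNAs of the germ line that guide PIWI proteins to transposon transcripts and other targets. Long single-stranded precursors are unwound and cut on the surface of mitochondria and in germ granules, and the pathway is generally described as working without Dicer, which cuts double-stranded RNA and microRNA precursors. Tudor-domain proteins bind methylated arginines of PIWI proteins and hold the granules together. In mouse testis the pathway is busiest in spermatocytes at the pachytene stage of meiosis, which make up much of the testis at postnatal day 18, and the large granule of round spermatids, the chromatoid body, stores several of its proteins.

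The promoters are shown first because many pachytene piRNA genes share regulatory motifs. The RefSeq promoter table (GRCm38.p6, the assembly that mm10 names) held 12 promoters for 8 of the 10 genes, each covering 250 bases before and 50 bases after a transcript start, with none for Piwil2 and Tdrd6. The letters CACGTG, an E-box that reads the same on both strands, were found in 7 of the 12 promoters and in 6 of the 8 genes (75.0%). The same letters were in 7.15% of all 32851 promoters and in 8.09% of the 27025 genes of the table. Among the 14281 promoters with at least 10 CpG pairs the share was 10.9%. The members' promoters had a median GC content of 63.8% and a median of 22 CpG pairs, against 52.7% and 7 in the whole table. The stretches below show each E-box in capitals, 5′ to 3′ on the strand of the gene, and both overlapping Tdrd1 promoters hold the site shown for it.
Piwil1 (chr5:128736047-128736092, + strand): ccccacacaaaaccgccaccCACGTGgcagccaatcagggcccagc
Piwil1 (chr5:128736072-128736117, + strand): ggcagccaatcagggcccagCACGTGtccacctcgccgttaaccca
Ddx4 (chr13:112652314-112652359, - strand): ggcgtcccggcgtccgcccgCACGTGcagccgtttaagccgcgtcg
Mov10l1 (chr15:88982744-88982773, + strand): ccttCACGTGctaaccgccaacctctcgtg
Mael (chr1:166238942-166238987, - strand): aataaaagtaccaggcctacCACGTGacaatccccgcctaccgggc
Tdrd1 (chr19:56826178-56826223, + strand): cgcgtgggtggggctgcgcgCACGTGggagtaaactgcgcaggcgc
Tdrd9 (chr12:111971374-111971419, + strand): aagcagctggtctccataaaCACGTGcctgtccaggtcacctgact
Tdrd9 (chr12:111971444-111971489, + strand): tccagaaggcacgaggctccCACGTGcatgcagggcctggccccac

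Counted from the tabulated start, with negative positions before it, the E-boxes began at -179 and -154 in Piwil1, -29 in Ddx4 and -246 in Mov10l1. They began at -223 in Mael, at -165 and -95 in Tdrd9, and at -11 or -77 in Tdrd1, depending on the promoter. The windows of Tdrd5 and Tdrd7 held none. The core letters recognised by MYB proteins (TAACNG or CAACNG, either strand), sought because A-MYB is known to drive pachytene piRNA genes in mouse, were in 6 of the 12 promoters and 5 of the 8 genes (62.5%). That share was close to the 49.7% of all promoters and the 53.1% of all genes with a match. These matches describe the letters of each window and are no evidence of binding in these testes.

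All values are the authors' normalized counts, which carry no correction for transcript length, so levels are compared between libraries and not between genes. J2 columns summed to 0.446 to 0.824 M units (M, 1000000) and flow-through columns to 6.05 to 34.9 M. The 10 highest features held 39.6% to 65.0% of the J2 signal and 95.8% to 98.6% of the flow-through signal. A single feature, Lars2, held 61.4% of KO flow-through replicate 1 and 70.6% of adult flow-through replicate 2, which set these libraries apart from the others (at most 16.2%). A single read was worth roughly 0.116 to 0.516 units in J2 and 2.005 to 8.31 in flow-through. This estimate is weak in flow-through, where it puts some member values at less than 1 read (Tdrd7 at 0.341 in WT flow-through replicate 3). By that estimate no member had more than about 123 reads in a flow-through library. Dicer1, the targeted gene, was too low to check the labels. It was listed at 0 in 7 of 16 libraries, with 3.39, 0 and 0 in KO J2 against 11.3, 0 and 8.64 in WT J2, and 0, 3.68 and 8.33 in KO flow-through against 5.10, 12.4 and 0 in WT flow-through.

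Spermatocyte markers were detected in every group, with all 8 of the 8 genes above 0. Their summed level was 495 to 831 in KO J2, 1401 to 1450 in adult J2 and 661 to 1499 in WT J2. In flow-through it was 398 to 768 in KO, 400 to 593 in adult and 268 to 521 in WT libraries. Elongating spermatid markers marked the adult age, with sums of 1938 to 2540 in adult J2 against 0 to 1.67 in WT J2, while all 8 were at 0 in KO J2. In flow-through their sums were 6.34 to 26.9 in KO, 2627 to 2760 in adult and 7.74 to 21.1 in WT libraries. Round spermatid markers summed to 250 and 260 in adult J2 against 3.56 to 38.0 in WT J2, and Sertoli cell markers to 665 to 955 in KO J2, 138 and 323 in adult J2 and 336 to 919 in WT J2. KO and WT libraries were separate for Sertoli markers in flow-through (389 to 443 in KO, 245 to 306 in WT) and for spermatogonial markers in J2 (117 to 171 in KO, 35.4 to 81.7 in WT). Adult J2 also lay below WT J2 for spermatogonial (11.4 and 17.2) and peritubular myoid markers (9.77 and 13.1 against 73.3 to 151). The same held for red blood cell markers (4.03 and 5.79 against 106 to 445). These are bulk samples, so fewer cells of a type and less RNA per cell cannot be told apart. The part of these differences in any result below was not tested.

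**Figure D1:**
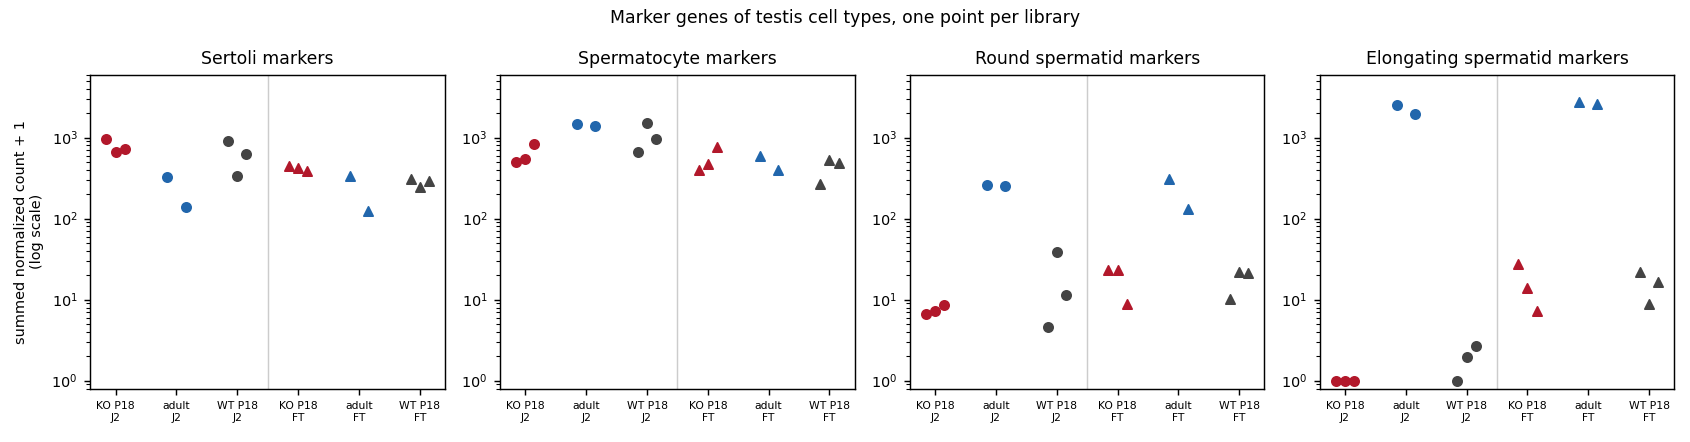
Summed normalized counts (+ 1, log scale) of marker genes of 4 testis cell types, with 1 point per library, circles for J2 and triangles for flow-through, and KO, adult and WT groups from left to right within each fraction. Spermatocyte sums lie between 268 and 1499 in all 16 libraries, while elongating spermatid sums are 1938 or more in adult libraries and 26.9 or less in all P18 libraries.

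All 10 genes passed the filter for testing (a value of at least 10 in at least 2 libraries). Ddx4 and Mael reached 10 in all 16 libraries, and 9 of the 10 did so in at least 8. Tdrd9 reached 10 in 7 libraries and was listed at 0 in 3. Between 7 and 10 members reached 10 in any library. The summed value of the 10 genes was 329 to 786 in KO J2, 736 and 1222 in adult J2 and 612 to 896 in WT J2. In flow-through it was 448 to 711 in KO, 550 and 704 in adult and 379 to 764 in WT libraries.

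Across 9 comparisons, none of the 10 genes differed beyond the spread between libraries by limma with Benjamini-Hochberg adjustment over all genes tested (adjusted p under 0.05). Of these 90 values, 2 had an unadjusted p under 0.05, and both were Piwil1 in KO J2. The values that follow show how wide each difference could be, since the 95% intervals often spanned several log2 units. A log2 difference here is on the scale of log2(normalized count + 1), which understates the change of low genes.

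**Figure D2:**
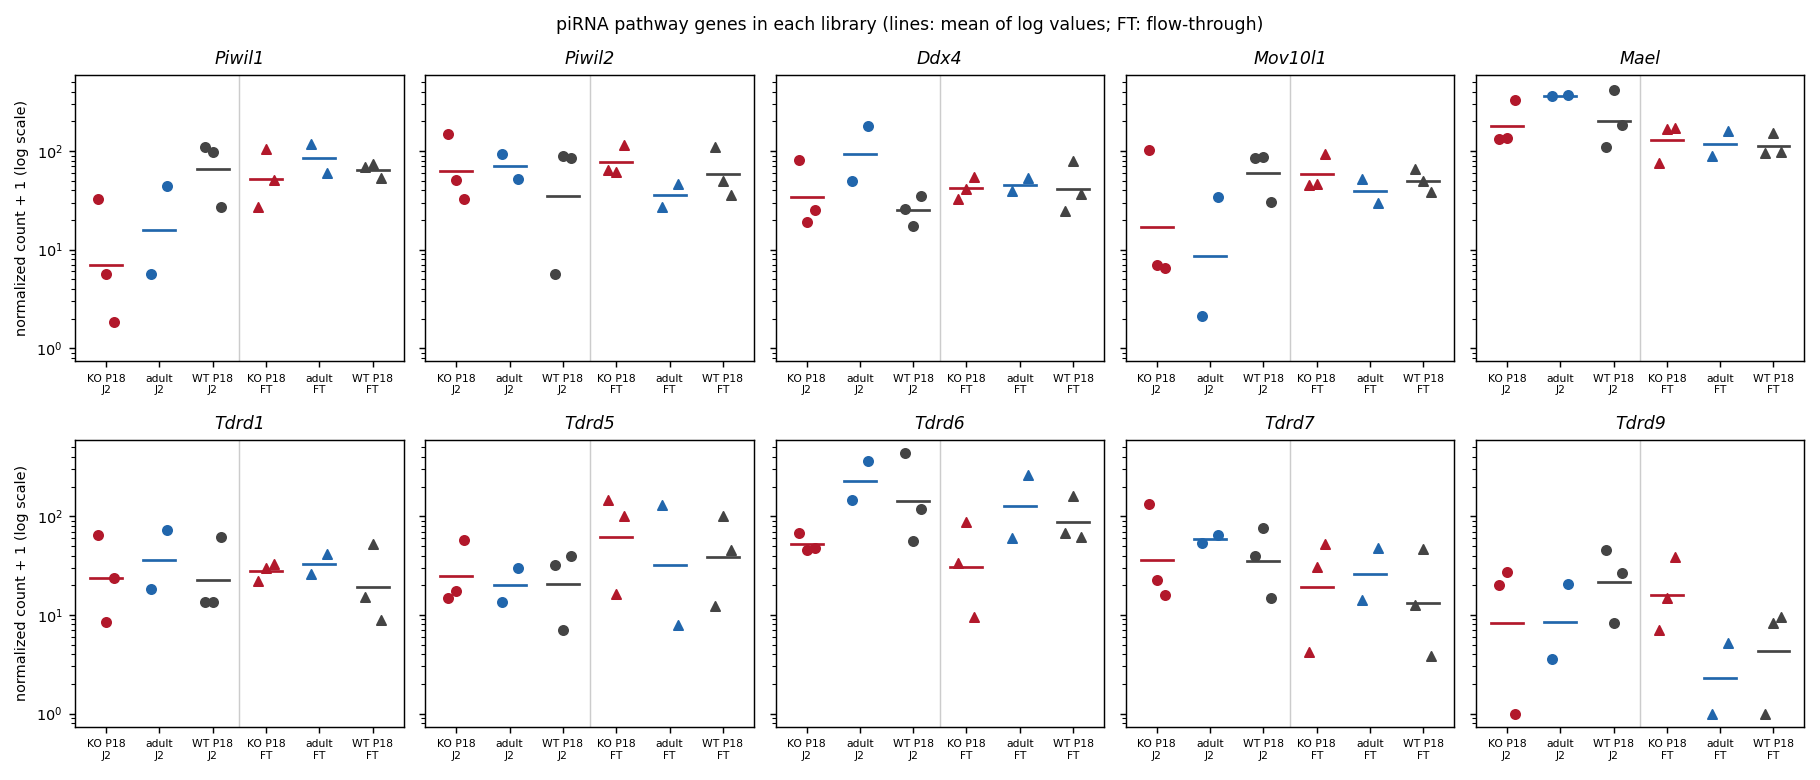
Normalized count + 1 (log scale) of each of the 10 genes, with 1 point per library and a line at the mean of the log values. J2 groups stand left of flow-through (FT) groups, each as KO, adult and WT from left to right, and in KO J2 Piwil1 spreads between 0.831 and 31.7 while WT J2 lies between 25.8 and 109.

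Piwil1 (MIWI) is the PIWI protein that carries pachytene piRNAs in spermatocytes and round spermatids. It had 31.7, 4.72 and 0.831 normalized counts in the KO J2 libraries, 4.60 and 43.2 in adult J2, and 109, 97.6 and 25.8 in WT J2. Flow-through values were 25.9, 103 and 50.2 in KO, 118 and 58.9 in adult, and 68.2, 72.1 and 51.9 in WT libraries. The lowest library was in KO J2 and the next lowest in adult J2. The highest KO J2 library stood above the lowest WT J2 library, so these groups overlapped. Group means were 12.4 ± 16.8 in KO J2, 23.9 ± 27.3 in adult J2 and 77.5 ± 45.2 in WT J2 (SD, n = 3, 2 and 3). In flow-through they were 59.6 ± 39.3 in KO, 88.2 ± 41.5 in adult and 64.1 ± 10.7 in WT libraries (SD, n = 3, 2 and 3). From KO J2 upwards, the order was adult J2, KO flow-through, WT flow-through, WT J2 and adult flow-through. Each neighbour lay within the larger SD of its pair from the next, though not always within the smaller.

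Piwil1 in J2 against flow-through had a log2 difference of -2.90 in KO testis (SE 1.04, 95% interval -5.07 to -0.73, limma unadjusted p = 0.0114, adjusted p = 0.282). Without KO flow-through replicate 1, the library led by Lars2, it was -3.38 (limma adjusted p = 0.402, and 0.123 to 0.645 over all alternatives). The same difference was -2.42 in adult testis (SE 1.27, limma adjusted p = 0.771) and 0.04 in WT testis (SE 1.04, limma adjusted p = 1.0). All Piwil1 values were lower in adult J2 than in adult flow-through, with 2 libraries on each side, but the size rests on single libraries: it was -0.93 without adult J2 replicate 1 and -3.91 without replicate 2. KO against WT in J2 gave -3.24 (SE 1.31, 95% interval -6.18 to -0.31, limma unadjusted p = 0.0335, adjusted p = 0.736), and in flow-through -0.30 (95% interval -1.56 to 0.96). Whether the genotypes differed in their J2 share of Piwil1 was tested by the genotype-by-fraction term, which was -2.94 (95% interval -6.01 to 0.13, limma adjusted p = 0.993).

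Piwil2 (MILI), the PIWI protein present from fetal germ cells to spermatocytes, had 147, 50.1 and 31.5 in KO J2, 92.4 and 51.5 in adult J2, and 4.62, 87.9 and 84.2 in WT J2. Unbound RNA gave 63.7, 60.5 and 115 in KO, 26.2 and 45.4 in adult, and 108, 48.8 and 34.5 in WT libraries. The lowest WT J2 library stood far below the other 2 of its group. Its log2 difference between J2 and flow-through was -0.30 in KO, 0.98 in adult and -0.73 in WT testis, each with an interval that held 0. KO against WT in J2 gave 0.84 (95% interval -1.68 to 3.37), and without the low WT library it was -0.47.

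Mov10l1 is the RNA helicase that binds piRNA precursors and feeds them to PIWI proteins. It had 102, 6.03 and 5.56 in KO J2, 1.14 and 33.2 in adult J2, and 83.2, 86.1 and 29.2 in WT J2. The flow-through libraries had 44.6, 45.8 and 92.2 in KO, 51.2 and 28.9 in adult, and 65.0, 48.9 and 37.0 in WT libraries. KO J2 held both its highest value of all and 2 of its 3 lowest. The log2 difference between J2 and flow-through was -1.80 in KO (95% interval -4.07 to 0.48), -2.21 in adult (-4.99 to 0.58) and 0.28 in WT testis (-1.998 to 2.55). In J2, KO against WT gave -1.85 (95% interval -4.96 to 1.26) and adult against WT gave -2.82 (-6.30 to 0.66). Without adult J2 replicate 1 the adult difference between fractions was -0.21 and that against WT J2 -0.82, and without replicate 2 they were -4.20 and -4.82.

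Ddx4, the germ-cell RNA helicase (vasa homologue) of the granules, had 79.4, 18.1 and 24.5 in KO J2, 48.5 and 176 in adult J2, and 24.7, 16.2 and 34.3 in WT J2. In flow-through it had 31.7, 40.4 and 53.9 in KO, 38.2 and 52.2 in adult, and 23.7, 77.6 and 35.9 in WT libraries. Both adult J2 libraries stood above all 3 WT J2 libraries, and the flow-through groups overlapped. Adult against WT in J2 gave a log2 difference of 1.91 (SE 0.96, 95% interval -0.24 to 4.05, limma adjusted p = 0.439). It was the 1 member whose groups did not overlap there, upwards, where 18.7% of the 6882 genes tested did the same, and 8.83% were separate downwards, with 0 members among them.

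Mael (Maelstrom), a granule protein needed for transposon silencing in mouse meiosis, was at 74.2 or more in every library. It had 132, 134 and 325 in KO J2, 360 and 369 in adult J2, and 108, 413 and 182 in WT J2. Flow-through values were 74.2, 168 and 172 in KO, 88.5 and 157 in adult, and 94.2, 151 and 96.0 in WT libraries. The adult J2 libraries lay close together and above both adult flow-through libraries. The log2 difference between J2 and flow-through was 0.47 in KO (95% interval -0.89 to 1.84), 1.62 in adult (-0.05 to 3.29) and 0.85 in WT testis (-0.51 to 2.22). Its point estimate was above 0 in each kind of testis, and none passed the test (smallest limma adjusted p = 0.585).

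Tdrd1, the Tudor protein that binds Piwil2 in the cement between mitochondria, had 63.5, 7.45 and 22.8 in KO J2, 17.1 and 72.1 in adult J2, and 12.6, 12.6 and 60.5 in WT J2. Unbound RNA gave 20.8, 29.2 and 31.5 in KO, 25.2 and 40.4 in adult, and 14.1, 51.5 and 7.94 in WT libraries. Every pair of groups overlapped. Its largest log2 difference among the 7 comparisons of groups was 0.78, for adult against WT in flow-through (95% interval -1.09 to 2.64).

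Tdrd5, a Tudor protein of the chromatoid body that binds piRNA precursors, had 13.9, 16.7 and 56.7 in KO J2, 12.6 and 29.2 in adult J2, and 31.1, 6.05 and 38.8 in WT J2. The flow-through libraries had 145, 15.2 and 98.8 in KO, 130 and 6.90 in adult, and 11.4, 100 and 44.0 in WT libraries. Flow-through libraries of 1 group differed widely, and the 145 of KO flow-through replicate 1 came from the library led by Lars2. The log2 difference between J2 and flow-through was -1.32 in KO (95% interval -3.75 to 1.10), -0.67 in adult and -0.88 in WT testis.

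Tdrd6, which builds the chromatoid body of mouse spermatids, had 66.5, 44.4 and 47.3 in KO J2, 144 and 365 in adult J2, and 439, 54.7 and 118 in WT J2. In flow-through it had 32.8, 87.1 and 8.53 in KO, 59.7 and 264 in adult, and 66.2, 161 and 60.5 in WT libraries. The KO J2 values lay close together, with 1 of them above the lowest WT J2 value. KO against WT gave -1.43 in J2 (95% interval -3.23 to 0.36) and -1.52 in flow-through (-3.43 to 0.39), with limma adjusted p = 0.849 and 0.836.

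Tdrd7, which remodels the chromatoid body in mouse, had 132, 21.6 and 15.1 in KO J2, 52.8 and 63.4 in adult J2, and 38.8, 75.1 and 13.9 in WT J2. Flow-through values were 3.24, 29.9 and 51.7 in KO, 13.3 and 47.0 in adult, and 11.5, 45.9 and 2.83 in WT libraries. Both adult J2 libraries were above both adult flow-through libraries. The log2 difference between J2 and flow-through was 0.94 in KO (95% interval -1.46 to 3.33), 1.17 in adult (-1.76 to 4.10) and 1.44 in WT testis (-0.95 to 3.83). In KO it was -0.15 without flow-through replicate 1.

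Tdrd9, a Tudor protein with an RNA helicase domain that silences transposons with the fetal PIWI protein Piwil4 in mouse, had 19.1, 26.4 and 0 in KO J2, 2.56 and 19.6 in adult J2, and 44.1, 7.35 and 25.8 in WT J2. Unbound RNA gave 6.01, 13.8 and 37.5 in KO, 0 and 4.25 in adult, and 0, 7.26 and 8.51 in WT libraries. Only KO libraries reached 10 in flow-through. Its log2 difference between J2 and flow-through was -0.96 in KO (95% interval -3.87 to 1.96), 1.90 in adult (-1.67 to 5.47) and 2.34 in WT testis (-0.58 to 5.25). The genotype-by-fraction term was -3.29 (95% interval -7.41 to 0.83, limma adjusted p = 1.0), the largest in size of the 10 genes.

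**Figure D3:**
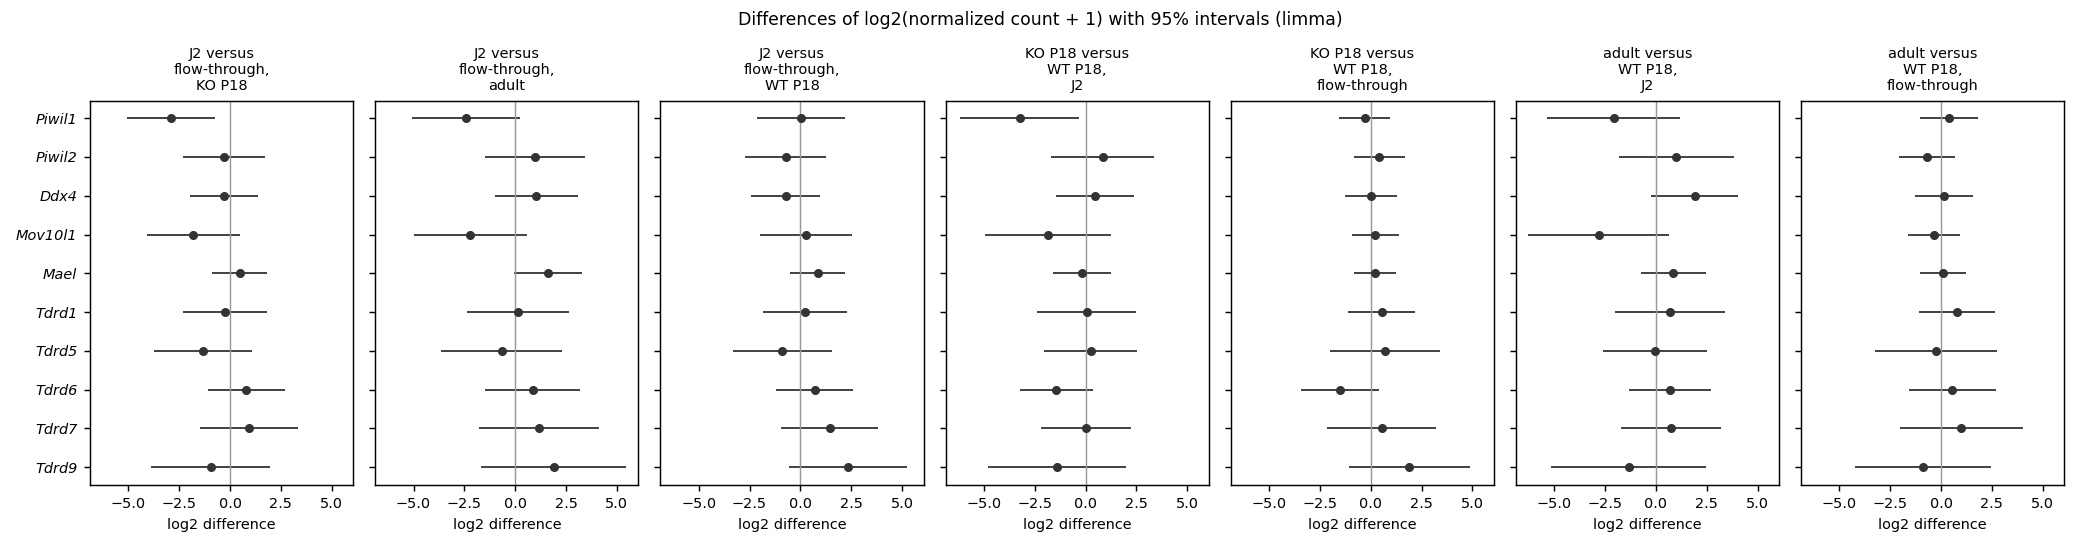
Log2 differences (log2 of normalized count + 1) of the 10 genes in 7 comparisons of groups, with points at the limma estimate and bars for the 95% interval. The intervals exclude 0 for Piwil1 in J2 against flow-through in KO testis (-5.07 to -0.73) and in KO against WT in J2 (-6.18 to -0.31), and hold 0 elsewhere.

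J2 against flow-through asks which RNAs the antibody enriches, relative to the median gene, since the authors' scaling removes amounts. In KO testis 0 of 10 genes passed, where 0.357% of 9526 genes did, and 1 had an unadjusted p under 0.05, where 11.5% of all genes did. The members' median log2 difference was -0.31, against -0.15 for all genes, and it was 0.22 with each library scaled to an equal total outside the 10 highest features and -0.94 without KO J2 replicate 1. In adult testis 0 of 10 passed, where 0.315% of all genes did, and 0 had an unadjusted p under 0.05, where 6.64% did. The medians were 0.92 for the members and 0.05 for all genes, and the members' median was 0.16 without adult J2 replicate 2 and 0.44 without adult flow-through replicate 1. In WT testis 0 of 10 passed, where 0.903% of all genes did, and 0 had an unadjusted p under 0.05, where 13.9% did. The medians were 0.25 for the members and -0.05 for all genes, and the members' median was -0.07 with quantile normalization, -0.01 without WT flow-through replicate 3 and 0.74 without WT J2 replicate 3.

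In the adult comparison Mael, Piwil2 and Tdrd7 were higher in both J2 libraries than in both flow-through libraries, where 18.4% of all genes were. Piwil1 was lower in both, where 17.3% of all genes were. In KO testis no member's groups were separate, against 6.95% of genes with J2 higher and 11.1% with J2 lower. In WT testis none was separate either, against 7.08% and 8.30%. In both P18 comparisons no member therefore stood apart in either direction, and the adult count rests on 2 libraries a side.

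Within J2, KO against WT asks whether loss of Dicer changes the double-stranded RNA bound. Of the 10 genes 0 passed, where 0% of 6882 genes did, and 1 (Piwil1) had an unadjusted p under 0.05, where 6.39% did, with medians of -0.07 for the members and 0.13 for all genes. Within flow-through 0 of 10 passed, where 0% of 7141 genes did, and 0 had an unadjusted p under 0.05, where 6.11% did, with medians of 0.32 for the members and 0.33 for all genes. With libraries left out in turn the members' median ran from -0.78 to 0.21 in J2 and from -0.12 to 0.47 in flow-through. No member's groups were separate in either fraction. In J2 6.12% of all genes were higher and 3.78% lower in every KO library than in every WT library, and in flow-through 7.53% and 3.04% were. The genotype-by-fraction term passed for 0 of 10 genes, where it passed for 0% of all genes, and 0 had an unadjusted p under 0.05, where 4.78% did. The members' median for that term was -0.45, against -0.09 for all genes, and -1.17 to -0.10 with libraries left out in turn.

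Adult against WT P18 in J2 called 5.46% of all genes, mostly upwards (349 rose and 27 fell), and 0 of the 10 members. At an unadjusted p under 0.05 it held 0 members and 14.1% of all genes. The members' median was 0.69, against 0.33 for all genes, and -0.14 without adult J2 replicate 2. In flow-through 3.23% of all genes passed (220 rose and 11 fell) and again 0 of 10 members, with 0 members and 11.7% of all genes at an unadjusted p under 0.05. The medians were 0.11 for the members and 0.28 for all genes, and the members' median was -0.10 with that equal total. No member's groups were separate in flow-through, against 16.6% of genes higher and 8.57% lower in adults. The age-by-fraction term passed for 0 of 10 genes and 0% of all genes, with 0 members and 5.4% of all genes at an unadjusted p under 0.05. Its medians were 0.04 for the members and 0.06 for all genes, and the members' median ran from -0.66 to 0.81 with libraries left out in turn. These comparisons share libraries, so their values are not independent of each other.

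Other genes of the pathway came from a list of 24, of which 19 passed the filter over 16 libraries. In adult against WT J2, 1 of 16 tested rose and 0 fell, a share near the 5.46% of all genes called there. This was Asz1 (GASZ), which anchors piRNA processing to the mitochondrial surface. It had 16.5 and 13.96 in adult J2 against 0, 1.73 and 0 in WT J2, and 1.23, 0.403 and 0 in KO J2. Its P18 J2 values were all 1.73 or less, so it passed the filter through the adult libraries alone, and the call is no independent sign of a difference. The log2 difference was 3.53 (SE 0.70, limma adjusted p = 0.0124). In adult flow-through it had 0 and 0.948, against 0, 11.3 and 0 in WT flow-through, values of a few reads by the estimate above. The call was lost without WT J2 replicate 1 (limma adjusted p = 0.0583) or replicate 3 (0.0660) and without the filter (0.184), and over all alternatives the adjusted p ran from 0.0048 to 0.184. Spermatid markers were higher in the same adult J2 libraries, as given above, and their part in this value was not tested.

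In the other comparisons 0 of the list passed by limma, with 4 of 19 genes at an unadjusted p under 0.05 for J2 against flow-through in KO, 1 in adult and 4 in WT testis, where 11.5%, 6.64% and 13.9% of all genes were. For KO against WT there were 0 of 16 in J2 and 2 of 17 in flow-through, for adult against WT 2 of 17 in flow-through, and for the genotype and age terms 1 and 2 of 19. The shares over all genes were 6.39% for KO against WT in J2 and 6.11% in flow-through. They were 11.7% for adult against WT in flow-through, 4.78% for the genotype term and 5.4% for the age term. The 3 of the list with the highest mean value were Hsp90aa1 (a heat-shock chaperone needed for piRNA production in mouse), Ddx25 (a testis RNA helicase that exports mRNA to the chromatoid body) and Tcfl5 (a testis transcription factor). Ddx25 had 122, 132 and 99.5 in KO J2 against 32.5, 49.5 and 42.8 in KO flow-through. It had 124 and 141 in adult J2 against 64.2 and 79.3 in adult flow-through, and 229, 178 and 139 in WT J2 against 32.5, 56.6 and 74.1 in WT flow-through. Every J2 library of Ddx25 stood above every flow-through library of the same testis. Of all genes, 6.95% did so in KO, 18.4% in adult and 7.08% in WT testis. Of the 19 listed genes tested, 2 were higher and 4 lower throughout in KO, 4 and 2 in adult, and 1 and 2 in WT testis. Lower throughout were 11.1% of all genes in KO, 17.3% in adult and 8.3% in WT testis. Gpat2, named after its values were seen, was lower throughout in each kind of testis (log2 difference -2.59 in KO, -2.1 in adult and -2.82 in WT testis). It reached 10 in 0 J2 and 6 flow-through libraries, so it passed the filter through flow-through alone. Its separation is therefore no independent sign of a difference. Its flow-through values stood for about 2.34 to 12.2 reads by the estimate above.

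The log2 differences of Ddx25 between J2 and flow-through were 1.49 in KO, 0.88 in adult and 1.77 in WT testis (smallest limma adjusted p = 0.177). Hsp90aa1 had 0.27 in KO, 0.67 in adult and 1.99 in WT testis, and Tcfl5 had 1.52 in KO, 0.35 in adult and -1.50 in WT testis. For KO against WT, the log2 differences were 0.05 in J2 and 1.77 in flow-through for Hsp90aa1, -0.60 and -0.32 for Ddx25, and 2.43 and -0.59 for Tcfl5. For adult against WT in flow-through they were 1.43 for Hsp90aa1, 0.46 for Ddx25 and 1.28 for Tcfl5. None of these passed the test.

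The members did not vary as a block. Among the 9 genes that reached 10 in at least 8 libraries, the 36 pairs had Pearson correlations of log2(normalized count + 1) between -0.48 and 0.84 over 16 libraries, with a median of 0.16, and 25 were above 0. The libraries share depth and scaling, and no test was made. Piwil1 and Mov10l1 were the closest pair (r = 0.84, Spearman's rho = 0.61). Without the 2 libraries farthest from the median of Piwil1 (adult J2 replicate 1 and KO J2 replicate 3), r was 0.72 and rho 0.43. Within the 8 J2 libraries r was 0.87 and within the 8 flow-through libraries 0.04. The J2 value includes KO J2 replicates 2 and 3 and adult J2 replicate 1, which were low for both genes. Flow-through values are coarse, so the 0.04 does not show that the likeness lay in J2 alone. Ddx4 and Tdrd1 (r = 0.77, rho = 0.79) kept 0.80 in J2 and 0.77 in flow-through, and 0.72 without the 2 farthest libraries (WT J2 replicate 2 and adult J2 replicate 2).

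**Figure D4:**
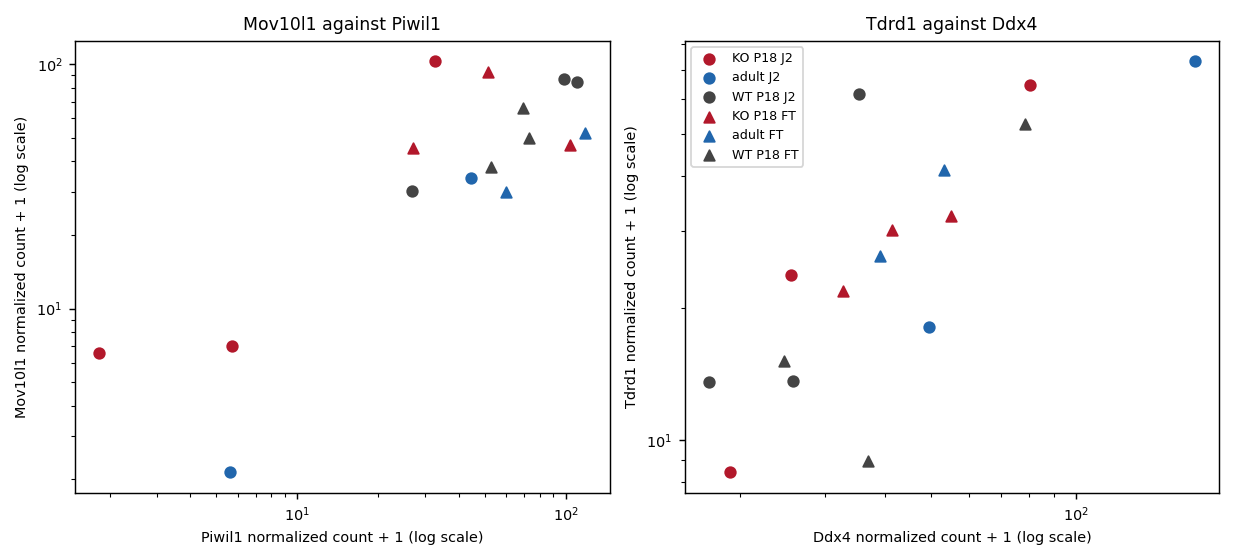
Normalized count + 1 of Mov10l1 against Piwil1 (left) and of Tdrd1 against Ddx4 (right) on log axes, with 1 point per library coloured by group, circles for J2 and triangles for flow-through. On the left 3 J2 libraries (2 KO and 1 adult) lie low for both genes, apart from the other 13, while on the right the 2 genes are high together in both fractions.

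Within a group, the members' highest values often fell in 1 library. KO J2 replicate 1 was the highest of its 3 libraries for 7 of the 10 genes, the exceptions being Mael, Tdrd5 and Tdrd9, and for 35.9% of the 9526 genes that passed the filter. Adult J2 replicate 2 was the higher of its pair for 9 of 10, all but Piwil2, and for 66.1% of the 9526. KO flow-through replicate 3 was the highest of its group for 7 of 10 and for 33.7%, and WT flow-through replicate 2 for 7 of 10 and for 33.99%. KO flow-through replicate 1, led by Lars2, was the lowest of its group for 7 of 10 and for 34.9%. No test was made of these counts. The estimated reads behind adult J2 replicate 2 were 4.54 M, against 2.07 M in replicate 1, and its summed member value was 1222 against 736.

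The genes closest in pattern to the members, among 3363 genes at the same level rule over 16 libraries, were mostly outside the pathway. They were Cep192, Lin54 and Gon4l for Piwil1 (r = 0.87, 0.87 and 0.86) and Ppt1, Ube2e3 and U2af2 for Piwil2 (0.82, 0.82 and 0.80). Mov10l1 was closest to Piwil1, Sf3a1 and Wdr34 (0.84, 0.83 and 0.83), and Ddx4 to Mars2, Nudt4 and Uhrf1bp1l (0.80, 0.78 and 0.78). Mael was closest to Cenpn, Cnot1 and Iqcg (0.90, 0.88 and 0.84). Tdrd1 was closest to Dmxl1, Cep83os and Ddx4 (0.81, 0.79 and 0.77), Tdrd5 to Nudt3, Selenop and Sept7 (0.78, 0.77 and 0.73). Tdrd6 was closest to Haspin, Rps20 and Dmrtb1 (0.81, 0.79 and 0.75). Picked as the highest of 3363 genes over 16 libraries, these correlations are descriptions only.

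In the GRCm38.p6 annotation all 10 are protein-coding genes spread over 9 chromosomes. Mael (166201385 to 166238744) and Tdrd5 (156255296 to 156304304) lie on chromosome 1, and Tdrd7 on chromosome 4 (45965027 to 46034766). Piwil1 lies on chromosome 5 (128736071 to 128755474), Tdrd9 on chromosome 12 (111971488 to 112068854) and Ddx4 on chromosome 13 (112598333 to 112652633). Piwil2 lies on chromosome 14 (70372477 to 70436898), Mov10l1 on chromosome 15 (88982891 to 89055152), Tdrd6 on chromosome 17 (43615334 to 43631846) and Tdrd1 on chromosome 19 (56826171 to 56870012).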

How the data were processed

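The deposited table gives each Ensembl gene in each library a signal, the authors' normalized count. The submitters' processing notes name FastQC, Trimmomatic, Salmon, DESeq2 and the build mm10, with no version, role or setting, and the labels' protocols name a strand-specific low-input kit. Of 35920 gene identifiers 35446 matched a symbol. The 16 columns were matched to libraries by their labels, and 0 pairs of columns were identical. Whole reads could not be recovered in most libraries, so no count test was run. The worth of 1 read is an approximation from low values that several genes share, and in flow-through few genes (0 to 9) sat at its multiples.

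The log2 of each value plus 1 was fitted in R 4.3.3 by limma 3.58.1 (empirical Bayes with a trend, two-sided). Genes needed 10 or more units in at least 2 libraries of the fit, and p-values were adjusted by Benjamini-Hochberg over all genes tested, with a threshold of 0.05. J2 against flow-through and both interaction terms used all 16 libraries, and the other comparisons the 8 libraries of a fraction. The fit was run on simulated data with 200 genes of known change. Their spread was fixed below that of the members, so this run does not measure how well changes are found in these data. The alternatives were another pseudocount, no filter, quantile normalization, a replicate block, each library left out in turn, and an equal total outside the 10 highest features, the last chosen after seeing the data.

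The members, gene lists, markers and motifs were chosen with earlier results of these data known. The text names all 10 members, every listed pathway gene that passed in a comparison or else the 3 most abundant, and the 3 genes closest in pattern to each member that reached 10 in at least 8 libraries. The genes closest to Tdrd7 are not reported here.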

Additional observations from a re-analysis of the deposited data

How the results depend on the processing

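No member passed in any of the 9 comparisons under any alternative (1008 values in all, smallest limma adjusted p = 0.123). The sign changed in 115 of these values, of which 2 had a reported log2 difference of at least 1 in size. The cause was not tested for any change below. With libraries left out in turn, the log2 difference ran from -0.15 to 1.67 for Tdrd7 (J2 against flow-through, KO), -2.27 to 0.12 for Tdrd9 and -0.47 to 1.52 for Piwil2 (KO against WT, J2), -0.31 to 1.68 for Piwil2 (adult against WT, J2) and -2.10 to 0.29 for Tdrd9 (adult against WT, flow-through). Tcfl5 ran from -2.55 to 0.16 (J2 against flow-through, WT) and was -0.032 in adults with quantile normalization. Hsp90aa1 ran from -0.082 to 0.61 (J2 against flow-through, KO) and -0.31 to 0.28 (KO against WT, J2). Asz1 (3.53, adult against WT, J2) did not pass without the filter (3.53, adjusted p = 0.184), with quantile normalization (3.10, 0.0602) or without WT J2 replicate 1 or 3 (3.29 in each). It was under the filter when an adult J2 library was left out.

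Counts over all genes moved more. J2 against flow-through called 86 genes in WT testis, 42 without the filter and 27 to 75 with libraries left out. In KO testis it called 34 (16 higher, 18 lower), 20 to 31 with libraries left out, and 31 higher and 18 lower with an equal total. In adults it called 30 (14 higher, 16 lower), 48 with a pseudocount of 5, 251 without the filter, 46 with quantile normalization (27 higher, 19 lower) and 11 to 70 with libraries left out. KO against WT in J2 called 0, and 0 to 2 with libraries left out. Adult against WT called 376 in J2 and 231 in flow-through, 0 in each without the filter, and 18 to 357 and 5 to 253 with libraries left out. The age-by-fraction term called 0, 110 without the filter and 0 to 43 with libraries left out. The median of all genes shifted with the scaling. For J2 against flow-through it was -0.15 in KO and 0.05 in adult testis, and 0.07 and 0.20 with an equal total (an alternative chosen after seeing the data). For KO against WT it was 0.13 in J2 and 0.33 in flow-through, and 0.00 and 0.14 with quantile normalization. For adult against WT it was 0.33 in J2 and 0.28 in flow-through, and -0.05 and 0.00 with quantile normalization. The genotype-by-fraction median was -0.09, and 0.08 with an equal total, and the age-by-fraction median was 0.06, and -0.06 with quantile normalization.

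A code shared by a J2 library and a flow-through library was used as the replicate block. Deviations of libraries with the same code correlated between -0.08 and 0.04 over 3363 genes, so the codes did not pair the libraries by their data. With the block, J2 against flow-through called 24 genes in WT, 20 in KO and 15 in adult testis, and 0 members in each. Flow-through values were the coarsest, since at 2.005 to 8.31 units a read a value of 10 stands for very few reads. Estimated reads in all were alike (0.998 to 5.87 M in flow-through, 1.23 to 4.54 M in J2). The 10 highest features took 95.8% to 98.6% of the flow-through signal.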

Other observations

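Tex15, a nuclear protein needed for piRNA-directed methylation of transposons in mouse, is named after its values were seen. Its log2 difference between J2 and flow-through was -3.01 in KO testis (limma adjusted p = 0.241), 0.12 in adult testis (0.991) and -3.67 in WT testis (0.0851). In WT testis it was -1.95 with a pseudocount of 5 (0.253), and the adjusted p ran from 0.0901 to 0.253 over all alternatives. Its values were 0.475, 0 and 0.454 in WT J2 against 11.7, 12.97 and 23.8 in WT flow-through. By the estimate above these stood for about 1.12, 0 and 2.27 reads in J2 and 1.97, 6.47 and 2.87 in flow-through. KO testis had 20.3, 4.84 and 2.85 in J2 against 182, 23.6 and 54.9 in flow-through, the 182 in the library led by Lars2. The age-by-fraction term was 3.79 (95% interval 0.47 to 7.12, limma adjusted p = 0.826). In both P18 comparisons every J2 library was below every flow-through library, where 11.1% of all genes in KO and 8.3% in WT testis were. With those shares of all genes doing the same, this was not particular to Tex15. Gpat2 of the same list was also lower throughout in both. It reached 10 in 0 J2 and 6 flow-through libraries, so it passed the filter through flow-through alone and is no independent sign.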
